A study of Mus musculus with 48 samples.

Results

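Zinc finger transcription factor genes were followed in the limb buds of mouse embryos exposed to cadmium or acetazolamide. The genes were chosen by symbol: a probe set had to name 1 gene called Zfp, Zscan or Zkscan with a number, and Zfp36, which encodes an RNA-binding protein of another zinc finger type, was left out. The rule gave 95 of the 8252 genes measured, read by 121 probe sets, and 86 of them carried the stem Zfp and 9 the stem Zscan or Zkscan. The family was proposed because the log2 ratios of these same arrays were already known, so its counts and medians below are descriptions. The tests given are those of single genes in a fit over all genes.

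The study compared 2 agents that harm the developing limb, each with its own vehicle. Pregnant mice received an intraperitoneal injection on gestation day 9.5, of cadmium sulfate at 4 mg/kg in phosphate-buffered saline (PBS), of PBS alone, of acetazolamide at 400 mg/kg in vegetable oil, or of oil alone. Right forelimb buds were collected 3 h or 12 h later and split with trypsin into ectoderm, the outer sheet, and mesoderm, the core that forms skeleton and connective tissue. The 16 groups had 3 arrays each, 48 in all. The sample descriptions call the RNA extracts non-pooled, while the treatment protocol says that tissue of several litters was pooled for RNA. Nothing says that arrays of a group came from separate mothers, so p-values measure only the spread between these arrays. In bulk tissue, fewer cells of a type and less RNA per cell cannot be told apart.

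Most genes of this family encode proteins with C2H2 zinc fingers, short loops that fold around a zinc ion and read DNA bases. Many of these proteins also carry a KRAB domain, which calls in the corepressor Trim28 and with it histone methylation and deacetylation, and others carry a SCAN domain, through which they pair. Some proteins with these symbols do other work, such as Zfp106 and Zfp326, which act in RNA metabolism, and Zfp91, a ubiquitin ligase. Cadmium is a metal that can occupy zinc sites in proteins, and acetazolamide inhibits carbonic anhydrase, itself a zinc enzyme.

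The deposited value of a probe set was a ratio to the vehicle arrays of that tissue and time. It carried no expression level, so neither the abundance of a member nor the labelled tissue could be checked by level. Values are given as the log2 of this ratio, where 0 is the vehicle level and -1 is a halving. In every comparison, vehicle arrays 1 and 2 averaged to 1 and vehicle array 3 was 1 by construction. The vehicle spread thus rests on arrays 1 and 2, which are tied to each other. Where groups are said not to overlap, that describes these ratios and is not a test. An effect is the difference between treated and vehicle arrays in that fit, with its standard error (SE). A member was called when limma's p, adjusted by Benjamini-Hochberg over all 8252 genes, was under 0.05. Of the 95 members, 7 were called in at least 1 of 18 contrasts and 88 in none.

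The family stood lower than vehicle 12 h after cadmium in both tissues and, in ectoderm, higher than vehicle 12 h after acetazolamide. In 12 h cadmium ectoderm the median effect of the members was -0.08 on the log2 scale, against 0.04 for the 8157 other genes, and 63 of 95 members lay below 0. In 12 h cadmium mesoderm the median was -0.08 against 0.01, and 60 members lay below 0. Both medians were small. In ectoderm the quartiles were -0.33 and 0.05, against -0.13 and 0.14 for the other genes. In mesoderm they were -0.22 and 0.05, against -0.08 and 0.09. The lower tail also held a larger share of the members. In ectoderm 13 members (13.7%) had an effect below -0.5, compared with 5.58% of the other genes, and in mesoderm 11 (11.6%), compared with 2.08%. In 12 h acetazolamide ectoderm the median was 0.15 against -0.0040 for the other genes, 71 members lay above 0, and 15 (15.8%) exceeded 0.5, compared with 5.15% of the other genes.

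In the other comparisons the median of the family lay close to the vehicle. At 3 h after cadmium the median was -0.0033 in ectoderm and -0.04 in mesoderm, and no member went beyond 0.5 in either direction. In that mesoderm 63 members (66.3%) lay below 0, against 49.5% of the other genes, whose median was 0.0012. At 3 h after acetazolamide the median was -0.0029 in ectoderm and -0.04 in mesoderm, against -0.04 and -0.03 for the other genes. In 12 h acetazolamide mesoderm it was 0.04, with 60 members above 0 and none beyond 0.5. Over all 95 members the effects ran from -0.46 to 0.40 in 3 h cadmium ectoderm and from -0.44 to 0.25 in 3 h cadmium mesoderm. The range widened to -1.56 to 0.46 and -1.10 to 0.57 in the same tissues at 12 h.

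**Figure D1:**
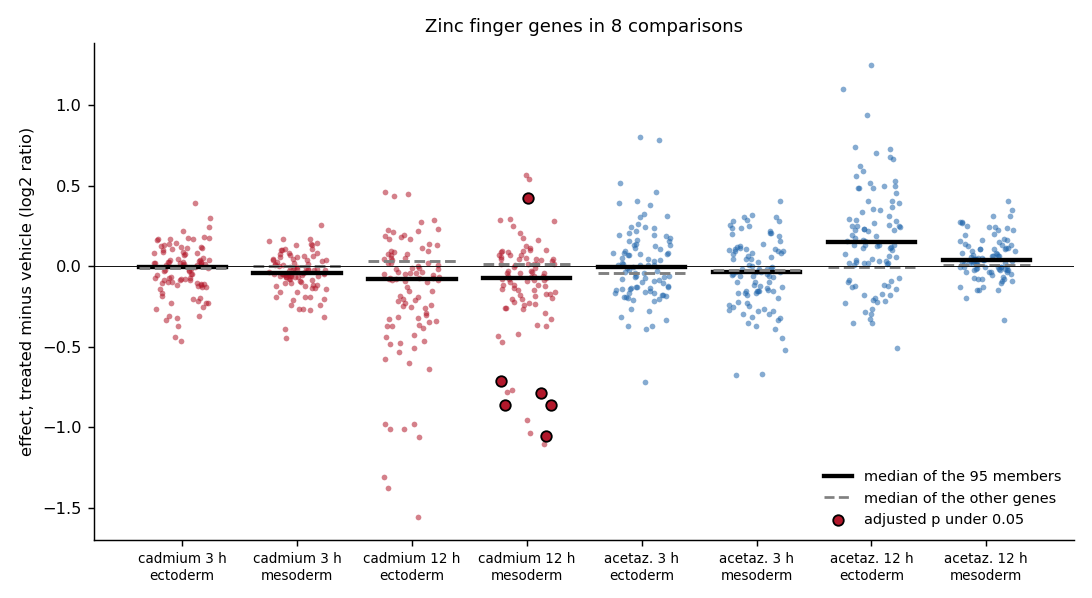
Effect of treatment on each of the 95 members (points, log2 ratio of treated minus vehicle) in the 8 comparisons, with the median of the members (solid bar) and of the 8157 other genes (dashed bar). Members with an adjusted p under 0.05 are outlined, and all 6 lie in 12 h cadmium mesoderm.

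Of the 8 comparisons, only 12 h cadmium mesoderm had called members. Of the 95, 5 fell and 1 rose (6.32%), where 2.28% of all genes were called. The 5 that fell stood against 1.22% of all genes called as lower. Those that fell were Zscan26, Zscan12, Zfp105, Zfp239 and Zfp35, and the 1 that rose was Zfp653. At an unadjusted p under 0.05, limma had 21 members (22.1%), 17 of them lower, against 13.8% of all genes.

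Zscan26, a SCAN domain protein, lay at -1.10, -0.61 and -1.51 in the cadmium arrays and at -0.29, 0.24 and 0 in the PBS arrays. All 3 cadmium arrays were below all 3 PBS arrays. It fell by 1.06 ± 0.19 (SE, n = 3 arrays a group), a 2.08-fold reduction, with an adjusted p of 0.00129 by limma. Its SCAN relative Zscan12 lay at -0.43, -1.06 and -1.09, against -0.10, 0.09 and 0 with PBS. The groups did not overlap here either. Its effect was -0.86 ± 0.23, with an adjusted p of 0.0400.

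Zfp105, known for its expression in developing male germ cells, lay at -0.46, -1.0 and -1.13 with cadmium and at 0.07, -0.08 and 0 with PBS. It fell by 0.86 ± 0.13, or 1.82-fold, with a limma adjusted p of 0.000146. Zfp239, a Krüppel-type protein able to bind DNA and RNA, lay at -0.49, -0.64 and -1.23 with cadmium. All 3 values were below the PBS arrays, which stayed within -0.01 and 0.01. Of these PBS arrays, array 3 is fixed and arrays 1 and 2 are tied to each other. The effect of -0.79 ± 0.11 (1.73-fold lower) had the smallest adjusted p of the family, 0.000108 by limma. Without array 3 of either group the effect was -0.57. Zfp35 lay at -0.60, -0.97 and -0.57 with cadmium and within -0.07 and 0.06 with PBS, and its effect was -0.71 ± 0.11 with a limma adjusted p of 0.000293. For all 3 genes the cadmium and PBS arrays were separate.

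Zfp653, which encodes a repressor of nuclear receptor activity, went the other way. It lay at 0.35, 0.60 and 0.29 with cadmium and at -0.22, 0.19 and 0 with PBS. The groups did not overlap, but the margin was narrow. Its effect was 0.42 ± 0.12, a 1.34-fold rise with an adjusted p of 0.0490 by limma.

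The 6 calls differed in how much they rested on the fit and on single arrays. Zfp105 and Zfp239 stayed called in 13 of 14 alternatives and were lost, with adjusted p of 0.146 and 0.145, only when the 6 arrays of the comparison were fitted alone. Zfp35 was lost in 2 alternatives and Zscan26 in 4. Zscan26 was not called without array 3 of either group. Zscan12 was lost in 8 alternatives, with adjusted p up to 0.691, and Zfp653 in 11, with adjusted p up to 0.688. Leaving out array 3 of either group left 3 called members, Zfp105, Zfp239 and Zfp35, with 0.703% of all genes called. Both omissions gave the same values, because array 3 of the 2 groups has a mean of its own in the fit. They are 1 check counted as 2 alternatives. Leaving out cadmium array 1 gave 15, with 4.37% of all genes called.

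**Figure D2:**
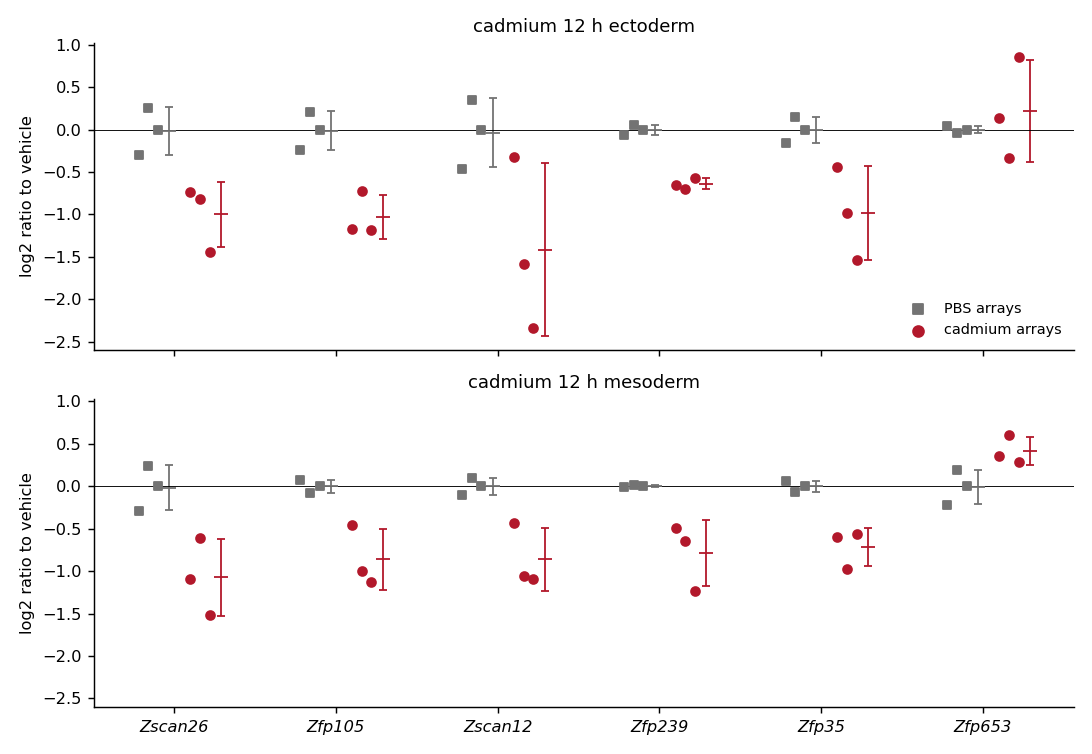
Log2 ratio to vehicle in each array for the 6 members called in mesoderm, 12 h after cadmium, in ectoderm (top) and mesoderm (bottom). Points are arrays, the dash is the group mean and the bar the SD of 3 arrays. In mesoderm the cadmium arrays lie apart from the PBS arrays for all 6 genes, and in ectoderm the array values of Zscan12 and Zfp653 overlap between groups.

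Promoter sequences are shown for 4 of the members that fell and for Zfp62, which had the lowest effect in both tissues, so that their starts can be compared. Each is the 250 bases before a RefSeq transcript start in GRCm38.p6, written 5′ to 3′ on the gene's strand. Capitals mark 4 motifs on either strand: the CCAAT box (CCAAT), the GC box (GGGCGG), the TATA box (TATAAA) and the core of ETS sites (CCGGAAG). The Zscan26 window is chr13:21453728-21453977 on the minus strand. The others, on the plus strand, are chr13:21362570-21362819 for Zscan12, chr9:122922828-122923077 for Zfp105, chr6:117861774-117862023 for Zfp239 and chr11:49203042-49203291 for Zfp62. Zfp239 and Zfp62 have a further start, and the first by coordinate is shown.
Zscan26 promoter: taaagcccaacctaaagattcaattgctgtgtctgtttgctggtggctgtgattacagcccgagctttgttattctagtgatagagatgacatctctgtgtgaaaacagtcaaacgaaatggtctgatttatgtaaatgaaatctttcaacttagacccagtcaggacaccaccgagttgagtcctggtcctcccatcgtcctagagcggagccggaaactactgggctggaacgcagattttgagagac
Zscan12 promoter: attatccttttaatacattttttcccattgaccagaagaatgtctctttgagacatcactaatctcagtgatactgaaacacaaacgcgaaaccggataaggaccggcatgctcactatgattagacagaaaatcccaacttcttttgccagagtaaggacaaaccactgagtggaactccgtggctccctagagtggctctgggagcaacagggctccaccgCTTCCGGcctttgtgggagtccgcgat
Zfp105 promoter: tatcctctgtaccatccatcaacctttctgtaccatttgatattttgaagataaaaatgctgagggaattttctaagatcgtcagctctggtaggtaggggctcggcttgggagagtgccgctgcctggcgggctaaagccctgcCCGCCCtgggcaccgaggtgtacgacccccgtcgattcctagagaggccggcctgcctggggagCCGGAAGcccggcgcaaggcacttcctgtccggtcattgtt
Zfp239 promoter: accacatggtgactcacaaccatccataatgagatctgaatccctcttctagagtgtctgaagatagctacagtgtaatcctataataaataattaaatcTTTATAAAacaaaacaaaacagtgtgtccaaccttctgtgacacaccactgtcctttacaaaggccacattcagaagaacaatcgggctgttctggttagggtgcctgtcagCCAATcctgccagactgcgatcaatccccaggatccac
Zfp62 promoter: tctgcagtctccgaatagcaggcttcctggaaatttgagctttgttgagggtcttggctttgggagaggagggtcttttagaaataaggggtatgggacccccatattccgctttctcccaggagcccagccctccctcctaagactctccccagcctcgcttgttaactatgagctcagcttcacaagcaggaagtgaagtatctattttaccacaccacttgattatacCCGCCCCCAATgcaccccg

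These 5 windows shared none of the 4 motifs throughout. The Zscan26 window held no match, Zscan12 held 1 ETS core, Zfp105 held 1 GC box and 1 ETS core, Zfp239 held 1 CCAAT box and 2 overlapping TATA matches on opposite strands, and Zfp62 held 1 CCAAT box and 1 GC box. Their G and C content ran from 42.8% for Zfp239 to 57.2% for Zfp105.

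RefSeq starts were found for 77 of the 95 members, 100 starts in all, and were set beside all 32851 starts of the table. The median G and C content of the same 250 bases was 56.8% for members and 52.4% over all starts, with a median of 13 against 6 CpG. GGGCGG occurred in 49% of the members' windows and 32.7% of all, CCAAT in 42% and 33.8%, and CCGGAAG in 15% and 6.91%. TATAAA occurred in 8% and 12.4%. The cores of metal response elements, bound by the zinc sensor Mtf1, were TGCACNC, in 14% of members and 10.4% of all windows, and TGCGCNC, in 14% and 12.5%. A match is a description of the letters and not of a bound site.

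Zfp62, Zfp281, Zfp871, Zfp101 and Zfp131 had effects in 12 h cadmium mesoderm in the range of the called members and did not pass the test. Zfp62 lay at -0.56, -1.73 and -1.11 with cadmium and at 0.32, -0.40 and 0 with PBS, an effect of -1.10 ± 0.37 with a limma adjusted p of 0.128. Zfp281, a factor of pluripotent cells that binds GC-rich promoters, lay at -0.42, -1.33 and -1.45, and at 0.33, -0.42 and 0 with PBS. Its highest cadmium array and lowest PBS array were nearly level, and its adjusted p was 0.136 by limma. Zfp871 overlapped: its cadmium array 1 was at -0.10 and PBS array 2 at -0.37, and its adjusted p was 0.0752 by limma. Zfp101 (-0.78 ± 0.23) and Zfp131 (-0.78 ± 0.23), a BTB domain protein, had limma adjusted p of 0.0719 and 0.0675. Their cadmium arrays lay below all PBS arrays.

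At the upper end of the same comparison, Zfp688 lay at 0.42, 0.79 and 0.47 with cadmium. Its effect of 0.57 ± 0.17 was the highest of the family and had a limma adjusted p of 0.0753. Zfp692 had an effect of 0.54 ± 0.21 and overlapping groups. In all, the 3 cadmium arrays lay below the 3 PBS arrays for 22 members, a share to be read beside 9.51% of all genes, and above them for 6 members, beside 9.80% of all genes.

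Ectoderm 12 h after cadmium had the lowest effects and the widest spread. No member was called, and 0.0242% of all genes were. At an unadjusted p under 0.05, limma had 15 members (15.8%), all of them lower, against 4.45% of all genes. The cadmium arrays lay below the PBS arrays for 13 members, against 5.72% of all genes. The spread within the fit was the largest of the 8 comparisons, with a residual SD of 0.223 against 0.115 in mesoderm.

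Several genes low in mesoderm had the lowest effects here as well, and 1 cadmium array stood apart from the other two. Zfp62 lay at -0.93, -0.43 and -3.35 with cadmium, against -0.20, 0.18 and 0 with PBS. The effect was -1.56 ± 0.72, and array 3 was far below the others. Zscan12 lay at -0.32, -1.58 and -2.34, against -0.46, 0.35 and 0, so that the groups overlapped, and its effect was -1.38 ± 0.44 with a limma adjusted p of 0.723. Zfp871 lay at -1.10, -0.25 and -2.64, an effect of -1.31 ± 0.55. Zfp101 and Zkscan3 also had their lowest value in array 3, at -1.92 and -1.93.

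Over the family, cadmium array 3 of this comparison had 15 members below -1, whereas arrays 1 and 2 had 2 and 1. The SD over the members was 0.798 in array 3 and 0.331 and 0.402 in arrays 1 and 2. Array 3 held the lowest of the 3 cadmium values for 43 members and the highest for 39, so it was wider in both directions. Without this array the median effect of the members was -0.06, with 64 members below 0 and 13 below -0.5. Its part in the result was otherwise not tested.

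Of the other low members, Zfp105 lay at -1.17, -0.72 and -1.19 with cadmium and at -0.24, 0.21 and 0 with PBS, an effect of -1.01 ± 0.25 with a limma adjusted p of 0.203. Zfp239 lay at -0.65, -0.70 and -0.57, within 0.06 of 0 with PBS, an effect of -0.64 ± 0.22. Zfp35 lay at -0.44, -0.98 and -1.54, an effect of -0.98 ± 0.22 with the smallest adjusted p of the members here, 0.146 by limma. These 3 and Zscan26 (-0.74, -0.82 and -1.44) had no overlap with PBS. At the upper end of ectoderm, Zfp688 lay at 0.14, -0.36 and 1.59, an effect of 0.46 ± 0.33, and Zfp524 had 0.44 ± 0.23. Zfp518b, at 0.14, 0.35 and 0.15, was the only member with all cadmium arrays above PBS, an effect of 0.21 ± 0.20. Among all 8252 genes, 357 had all cadmium arrays above PBS. Zfp110 (-0.58 ± 0.24) and Zfp467 (-0.47 ± 0.18) lay lower in all 3 cadmium arrays. Without the weights that give each comparison its own spread, 5 members were called in ectoderm: Zfp105, Zfp239, Zfp35, Zscan12 and Zscan26. In that setting 1.08% of all genes were called.

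Effects in the 2 tissues went together across members. Pearson's r between ectoderm and mesoderm 12 h after cadmium was 0.782 and Spearman's rho 0.666 over the 95 members, and r was 0.562 over the other genes. These are descriptions across genes, which are not independent, and the tissues were split from limb buds treated alike. Both effects were negative for 48 members and both positive for 20. Among the other genes 2222 were negative in both and 3244 positive in both.

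Below -0.5 in both tissues lay 9 members: Zfp62, Zfp871, Zscan12, Zscan26, Zfp105, Zfp101, Zfp35, Zfp239 and Zfp131. They are grouped here by their values, with no test, and 79 of the 8157 other genes passed the same limit. Just inside it was Zfp131 at -0.60 in ectoderm and -0.78 in mesoderm, and just outside was Zkscan3 at -1.01 and -0.42. Their median was -1.01 in ectoderm and -0.86 in mesoderm. Without cadmium array 3 of ectoderm the ectoderm median was -0.67, with all 9 below 0, and without cadmium array 3 of mesoderm the mesoderm median was -0.74. At 3 h after cadmium the medians of the same genes were -0.19 and -0.12.

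**Figure D3:**
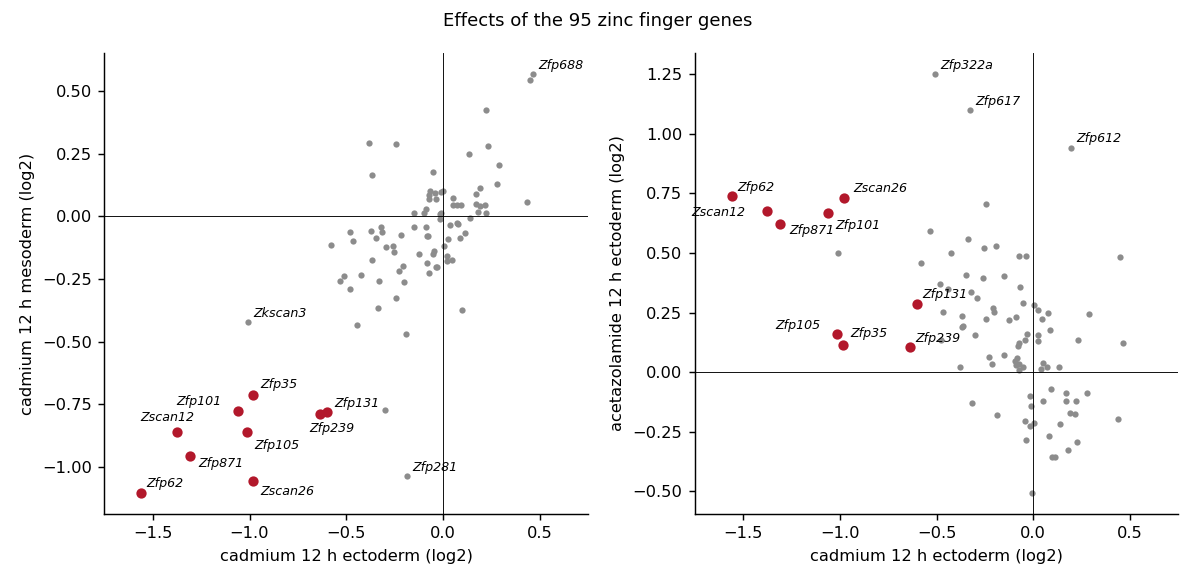
Effects of the 95 members (log2 ratio, treated minus vehicle) 12 h after cadmium in ectoderm, set against 12 h cadmium mesoderm (left) and 12 h acetazolamide ectoderm (right), with the 9 low members named. These 9 lie at the lower left on the left side and above 0 for acetazolamide on the right side.

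Effects were also described by the stem of the symbol and by chromosome. All 9 Zscan and Zkscan genes had an effect below 0 in 12 h cadmium ectoderm, with a median of -0.34. In mesoderm 5 were below 0 and 4 above, with a median of -0.23. Of the 5 members on chromosome 13, the medians were -0.98 in ectoderm and -0.78 in mesoderm. Of these, 3 lie close together in GRCm38.p6, with no other measured gene between them: Zscan12 (chr13:21362820-21372302), Zkscan3 (chr13:21387004-21402755) and Zscan26 (chr13:21442180-21453727). Trim27 and Gpx5, other genes measured nearby, had effects of -0.12 and -0.02 in ectoderm and 0.14 and 0.00 in mesoderm.

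The larger groups on other chromosomes had medians nearer 0. The 19 members on chromosome 7 had medians of 0.01 in both tissues, and the 15 on chromosome 17 had -0.09 in ectoderm and -0.15 in mesoderm. Zfp239 (chr6:117862024-117872766) lies near Zfp637, which had -0.32 in ectoderm and -0.06 in mesoderm. Zfp871 (chr17:32765496-32788287) lies near Zfp799 (0.17 and 0.05) and Zfp472 (-0.53 and -0.26). Zfp105 is at chr9:122923039-122935260 and Zfp653, which rose in mesoderm, at chr9:22055411-22071395.

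At 3 h after cadmium no member was called in either tissue, and 0% of all genes were. In limma, 4 members (4.21%) in ectoderm had an unadjusted p under 0.05, against 3.32% of all genes, and 3 (3.16%) in mesoderm, against 3.09%. These shares were thus near the background at this time. Zfp467, a factor of mesenchymal cells that steers bone and fat formation, had the smallest adjusted p, 0.567 by limma, in mesoderm. It lay at -0.38, -0.45 and -0.51 with cadmium and within 0.04 of 0 with PBS, an effect of -0.44 ± 0.10. The groups did not overlap.

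In 3 h cadmium ectoderm, Zfp703, a transcriptional corepressor, lay at 0.64, 0.45 and 0.10, an effect of 0.40 ± 0.19. Zfp148, which binds GC-rich promoters, lay at -0.17, -0.33 and -0.48, an effect of -0.32 ± 0.16. Zfp326 had 0.30 ± 0.25 and Zkscan6 -0.20 ± 0.09. In 3 h cadmium mesoderm Zscan26 lay at -0.30, -0.29 and -0.22, an effect of -0.27 ± 0.19, in the same direction as at 12 h. Zfp91 had 0.13 ± 0.09 and Zfp639 0.11 ± 0.14.

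The change of the cadmium effect from 3 h to 12 h was tested in the same fit. In mesoderm no member was called, against 0.460% of all genes, and 17 members (17.9%) had an unadjusted p under 0.05 by limma, against 8.63% of all genes. The smallest adjusted p were 0.0661 for Zfp35 (-0.65 ± 0.16), 0.0664 for Zfp105 (-0.74 ± 0.18) and 0.0817 for Zfp239 (-0.63 ± 0.16), all by limma. Zscan26, already low at 3 h, had a time difference of -0.79 ± 0.27 with a limma adjusted p of 0.266. In ectoderm no member was called, against 0.0121% of all genes, and 7 members (7.37%) had an unadjusted p under 0.05, against 3.49%.

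Averaged over both tissues and times, the cadmium effect was called for 5 members (5.26%), all lower, against 0.570% of all genes. Zfp105 fell by 0.55 ± 0.09, Zscan26 by 0.65 ± 0.13, Zfp35 by 0.43 ± 0.08, Zfp239 by 0.42 ± 0.08 and Zfp467 by 0.31 ± 0.06. Their limma adjusted p ran from 0.00247 for Zfp105 to 0.0117 for Zfp467. At an unadjusted p under 0.05 there were 19 members (20.0%), 17 of them lower, against 10.6% of all genes. Zfp467 was called in this mean and in no single comparison: its effects at 12 h were -0.47 ± 0.18 in ectoderm and -0.10 ± 0.09 in mesoderm.

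Zfp105 and Zfp239 stayed called in all 31 alternatives run for the mean. Zfp35, Zfp467 and Zscan26 were lost without array 3 of either 12 h ectoderm group, where 2 members remained called, beside 0.133% of all genes. Here too, leaving out array 3 of either group gave the same values, so the 31 alternatives hold fewer separate checks. Larger mean effects with a wider spread were not called, such as Zfp62 at -0.78 ± 0.25 and Zfp871 at -0.64 ± 0.19. Zscan12 (-0.56 ± 0.15), Zfp101 (-0.53 ± 0.15) and Zkscan3 (-0.53 ± 0.14) had adjusted p of 0.116, 0.139 and 0.111 by limma. All 4 cadmium effects were negative for 22 of the 95 members, compared with 635 of the 8157 other genes. They were all positive for 3 members, compared with 945 of the other genes.

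Acetazolamide at 12 h in ectoderm gave the family its highest values, but no single member was called, and 0% of all genes were. The smallest adjusted p was 0.559 by limma. At an unadjusted p under 0.05 there were 14 members (14.7%), 11 of them higher, against 7.86% of all genes. The acetazolamide arrays lay above the oil arrays for 21 members, against 8.48% of all genes, and below them for 5, against 8.31%.

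Zfp322a, a factor of pluripotent cells, lay at 1.74, 1.15 and 0.59 with acetazolamide and at -0.78, 0.50 and 0 with oil. The groups did not overlap, and the effect was 1.25 ± 0.72. Zfp617 lay at 1.27, 1.03 and 0.79, and at -0.66, 0.45 and 0 with oil, an effect of 1.10 ± 0.39. Zfp90, a KRAB protein, lay at 0.54, 1.07 and 0.42, and at -0.42, 0.32 and 0 with oil, an effect of 0.71 ± 0.24. For both of the latter, too, the groups did not overlap, and the limma adjusted p was 0.559.

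Genes low after cadmium were among those high after acetazolamide. Zscan26 lay at 0.57, 0.89 and 0.62, an effect of 0.73 ± 0.31, and Zscan12 at 0.53, 0.61 and 0.71, an effect of 0.68 ± 0.38. Their acetazolamide arrays lay above all oil arrays. Zfp62 lay at 0.78, -0.75 and 2.16, with no separation. Zfp101 had 0.67 ± 0.38 and Zfp871 0.62 ± 0.47, while Zfp105, Zfp239 and Zfp35, called in cadmium mesoderm, had only 0.16 ± 0.21, 0.10 ± 0.19 and 0.12 ± 0.18.

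At the lower end, Zfp444 lay at -0.52, -0.38 and -0.62, against -0.02, 0.02 and 0 with oil, an effect of -0.51 ± 0.19. Zfp574 lay at -0.43, -0.26 and -0.41, an effect of -0.35 ± 0.16. Both had no overlap with oil. Their adjusted p were 0.605 and 0.628 by limma.

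The oil arrays moved with the family in this comparison. For 70 of the 95 members oil array 1 was the lowest and oil array 2 the highest of the vehicles, which is 1 observation, since these arrays average to 1 and array 3 is fixed. The median over all genes was -0.06 in oil array 1 and 0.06 in oil array 2, and over the members -0.13 and 0.12. Without oil array 1 the median effect of the members was 0.06, with 59 members above 0 and 5 above 0.5. Without oil array 2 the median was 0.25, with 24 members above 0.5 and 6 called, beside 4.10% of all genes called. The 9 members low after cadmium had a median of 0.62 with all arrays, 0.39 without oil array 1 and 0.78 without oil array 2, and all 9 were above 0 each time.

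**Figure D4:**
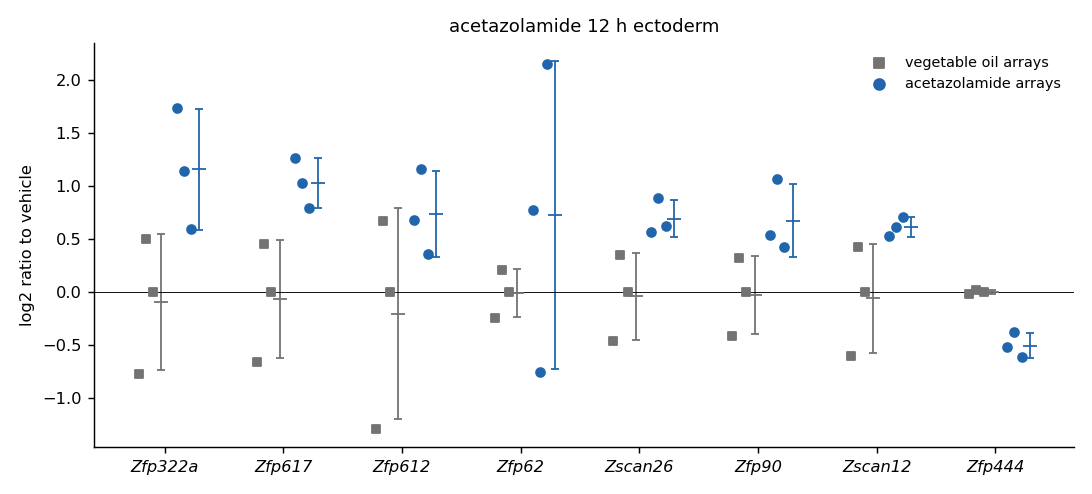
Log2 ratio to vehicle in each array for 8 members in ectoderm, 12 h after acetazolamide (points are arrays, the dash is the mean and the bar the SD of 3 arrays). Acetazolamide arrays of Zfp322a, Zfp617, Zscan26, Zfp90 and Zscan12 lie above all oil arrays, those of Zfp444 lie below, and Zfp612 and Zfp62 overlap with oil.

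In 12 h acetazolamide mesoderm no member was called, against 0% of all genes, and 1 member (1.05%) had an unadjusted p under 0.05 by limma, against 0.788%. Zkscan1 had the highest effect of the family, 0.41 ± 0.20, with arrays at 0.66, 0.43 and 0.14. Zfp90 had 0.31 ± 0.20, in the direction it had in ectoderm. At the other end stood Zfp326 at -0.33 ± 0.28, Zfp467 at -0.09 ± 0.13 and Zfp40 at -0.08 ± 0.11. Acetazolamide arrays lay above the oil arrays for 7 members, against 3.43% of all genes. Pearson's r between the 12 h effects of ectoderm and mesoderm was 0.673 over the members and 0.175 over the other genes, and both effects were positive for 52 members.

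At 3 h after acetazolamide no member was called, against 0.0242% of all genes in ectoderm and 0.0364% in mesoderm. Without adjustment, limma's p was under 0.05 for 7 members (7.37%) in ectoderm, against 6.86% of all genes, and 6 (6.32%) in mesoderm, against 7.36%. Both shares were near the background. In ectoderm Zfp637 lay at -0.76, -0.70 and -0.73, against 0.21, -0.24 and 0 with oil, an effect of -0.72 ± 0.22 with a limma adjusted p of 0.458. All 3 arrays were below oil and close together. Zfp281 (0.80 ± 0.48) and Zfp62 (0.78 ± 0.50) had the highest effects there, and Zfp703 had 0.52 ± 0.20. Zfp532 lay at 0.45, 0.53 and 0.22, an effect of 0.40 ± 0.17, and Zfp61 had 0.16 ± 0.16.

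In 3 h acetazolamide mesoderm, Zfp653 lay at -0.28, -0.36 and -0.69, an effect of -0.44 ± 0.16. Zfp787, with an effect of -0.29 ± 0.09, had the smallest adjusted p, 0.380 by limma. Its 3 probe sets disagreed here and ran from -0.60 to 0.02. Zfp692 had -0.39 ± 0.28 in ectoderm and -0.52 ± 0.28 in mesoderm at this time. Zfp472 lay at 0.29, 0.30 and 0.27, an effect of 0.29 ± 0.22, and Zfp101 had 0.40 ± 0.31. None of these passed the test.

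The mean acetazolamide effect over tissues and times was called for 0 members and 0.739% of all genes. At an unadjusted p under 0.05, limma had 21 members (22.1%), 9 higher and 12 lower, against 14.1% of all genes. The smallest adjusted p was 0.0711, for Zfp787, and Zfp90 followed with 0.39 ± 0.10 and 0.0729, both by limma. The probe sets of Zfp787 disagreed in 3 h mesoderm. Among members with the same sign in all 4 comparisons, Zfp62 (0.49 ± 0.27), Zfp871 (0.39 ± 0.20), Zfp101 (0.37 ± 0.16) and Zfp472 (0.33 ± 0.12) were next to Zfp90 in size. The time difference of the acetazolamide effect was called for no member and 0% of all genes in either tissue. In mesoderm 5 members (5.26%) had an unadjusted p under 0.05, against 2.31% of all genes, and in ectoderm 9 (9.47%), against 3.17%.

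The 2 agents were compared directly as the cadmium effect minus the acetazolamide effect. The agents used different vehicles, so the effects share no control arrays. In 12 h ectoderm the median of the members was -0.22 and 66 lay below 0. No member was called, against 0% of all genes, and 26 members (27.4%) had an unadjusted p under 0.05 by limma, against 11.7% of all genes, with 24 of them lower after cadmium. Zscan12 differed by -2.05 ± 0.58, Zscan26 by -1.71 ± 0.48, Zfp105 by -1.17 ± 0.32 and Zfp35 by -1.10 ± 0.28. Their limma adjusted p lay between 0.173 and 0.217.

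In 12 h mesoderm the median difference was -0.11 and 69 members lay below 0. No member was called, against 0.0121% of all genes, and 10 (10.5%) had an unadjusted p under 0.05, against 3.94%. Zfp239 had the smallest adjusted p, 0.148 by limma, with a difference of -0.90 ± 0.19. Zscan26 differed by -1.25 ± 0.32 and Zfp105 by -0.91 ± 0.22. At 3 h no member was called in ectoderm, against 0.0121% of all genes, or in mesoderm, against 0%. There, 3 members (3.16%) in ectoderm and 1 (1.05%) in mesoderm had an unadjusted p under 0.05 by limma, against 6.28% and 2.81% of all genes.

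Across the members, the effects of the 2 agents in 12 h ectoderm ran in opposite directions, with a Pearson's r of -0.528, and r was -0.461 over the other genes. In 12 h mesoderm r was -0.07 over the members. The opposite order in ectoderm was thus present in both sets of genes.

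**Figure D5:**
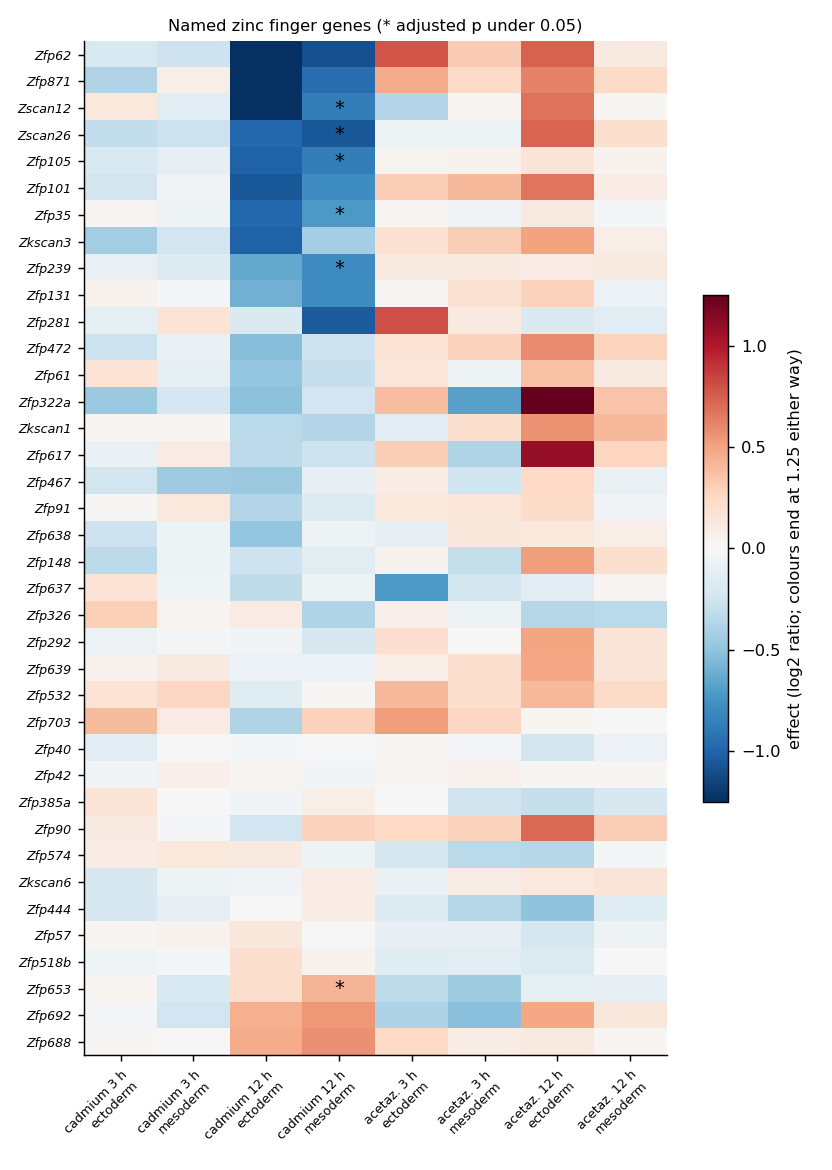
Effects (log2 ratio, treated minus vehicle) of 38 zinc finger genes in the 8 comparisons, with blue and red for lower and higher values and colours ending at -1.25 and 1.25. An asterisk marks an adjusted p under 0.05, which occurs only in the column for 12 h cadmium mesoderm.

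Members with a known role and no call gave mixed values. Zfp42, also known as Rex1, a marker of pluripotent cells, stayed within -0.03 and 0.06 of vehicle in all 8 comparisons. Zfp57, which guards DNA methylation at imprinted genes, had 0.14 and -0.01 in ectoderm and mesoderm 12 h after cadmium, and -0.22 and -0.07 after acetazolamide. Zfp385a, a target and partner of p53, had -0.04 and 0.07 after cadmium, and -0.29 and -0.20 after acetazolamide. None was called.

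Several probe sets read the same gene for 22 members and did not always give the same answer. The 3 probe sets of Zfp91 ran from -0.24 to 0.56 in 12 h acetazolamide ectoderm, and the 2 of Zfp638, a protein that binds cytidine-rich DNA, from -0.28 to 0.55 there. The 2 probe sets of Zfp292 ran from -0.27 to 0.26 in 3 h acetazolamide mesoderm, and the 3 of Zfp787 from -0.60 to 0.02. A gene mean near 0 can therefore hide probe sets that disagree. The called members were each read by 1 probe set, and zinc finger genes resemble each other in sequence, so signal from related transcripts on 1 probe set cannot be told apart.

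Partners of the KRAB proteins and other zinc proteins were described from lists chosen with earlier results of these data known. Of 18 measured genes of the KRAB corepressor complex and heterochromatin, 1 fell in 12 h cadmium mesoderm and none rose: Chd4, the remodelling subunit of a deacetylase complex, at -0.37 ± 0.09 with a limma adjusted p of 0.0361. This 1 gene is 5.56% of the list, beside 2.28% of all genes called. The median of the list was -0.11, and Trim28 itself had -0.22 ± 0.16. In 12 h cadmium ectoderm the median of the list was -0.09, beside 0.03 over all genes. No gene of the list was called there, against 0.0242% of all genes. By limma, 2 of the 18 had an unadjusted p under 0.05, against 4.45% of all genes.

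Other DNA-binding zinc proteins had medians above 0 in ectoderm and near 0 in mesoderm. The 56 other C2H2 factors had medians of 0.07 in ectoderm and -0.02 in mesoderm 12 h after cadmium, and the 33 nuclear receptors and GATA factors had 0.06 and 0.01. In ectoderm 39 of the 56 and 26 of the 33 lay above 0, beside 4753 of all 8252 genes, whose median was 0.03. None of the 56 or 33 was called in either tissue, against 0.0242% of all genes in ectoderm and 2.28% in mesoderm. The 7 RNA-binding CCCH proteins had medians of -0.07 and -0.12, also without a call. Of 15 genes of zinc handling, 2 fell in mesoderm: the metallothioneins Mt1 (-0.76 ± 0.14) and Mt2 (-2.86 ± 0.21), which bind zinc and cadmium, with limma adjusted p of 0.00205 and 6.71e-10. These 2 are 13.3% of the list, beside 2.28% of all genes called. Mtf1, the factor that drives the metallothioneins, had 0.03 ± 0.09. The zinc handling list had medians of -0.20 in ectoderm and -0.02 in mesoderm.

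Markers of other cell types were read in the same comparisons. All 12 measured endothelial markers were above 0 in both tissues 12 h after cadmium, with medians of 0.16 and 0.21. Of these, Tie1 (0.63 ± 0.12) and Eng (0.58 ± 0.16) rose in mesoderm, 16.7% of the list beside 2.28% of all genes called. The median of the list ran from 0.0857 to 0.424 over the cadmium arrays of mesoderm and from -0.0633 to 0.0599 over the PBS arrays. Red cell markers had medians of 0.19 in ectoderm and 0.14 in mesoderm over 10 genes. Of these, Alas2, an enzyme of heme synthesis, rose in mesoderm (0.53 ± 0.12, adjusted p of 0.0169 by limma). It is 10% of the list, beside the same 2.28% of all genes. Macrophage markers had 0.02 in both. The 20 surface ectoderm markers had 0.04 and 0.08, and the 16 limb mesoderm markers 0.06 and -0.06. In 3 h cadmium mesoderm 18 of the 20 surface ectoderm markers were above 0, with a median of 0.22 and none called. Their array medians were 0.0742 to 0.198 with cadmium and -0.0251 to 0.0246 with PBS. The limb mesoderm markers had a median of -0.01 there, with 8 above 0 and 8 below. In 12 h acetazolamide ectoderm, macrophage markers were below 0 for 9 of 10 genes, with array medians of -0.125 to -0.0846 against -0.0398 to 0.0381 with oil. Endothelial and red cell markers had medians of -0.13 each there, below 0 for 8 of 12 and 7 of 10 genes. No marker of these 3 lists was called in that comparison. Which of these markers stood near 0 in level could not be read from ratios, and their part in the members' values was not tested.

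RNA quality was read from the 3′ to 5′ ratio of Gapdh control probe sets, treated minus vehicle on the log2 scale. It was 0.49 in 12 h cadmium ectoderm, where the cadmium arrays lay at -0.67, 1.80 and 0.44, so that array 2 carried the difference. In 12 h cadmium mesoderm it was -0.25. After acetazolamide it lay between 0.41 and 0.59 in the 4 comparisons, and in 12 h mesoderm the value rested on array 2, at 1.72 against -0.19 and -0.05 in arrays 1 and 3. The actin ratio, treated minus vehicle, was 0.0021 and -0.07 in ectoderm and mesoderm 12 h after cadmium, and 0.23 to 0.52 after acetazolamide. The part of RNA quality in the members' values was not tested.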

How the data were processed

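The authors deposited a ratio to the vehicle arrays of that tissue and time for 12488 probe sets on each Affymetrix MG-U74Av2 array. How the ratio was made is not given in the sources used here. That treated arrays 1 and 2 share the denominator of vehicle arrays 1 and 2, and treated array 3 that of vehicle array 3, is inferred from the numbering. From the values: vehicle arrays 1 and 2 sum to 2 (largest deviation 3e-07) and vehicle array 3 is 1 (6e-08).

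Ratios were turned to log2 and averaged over the 10855 probe sets that name 1 gene, giving 8252 genes. Another 396 probe sets name several genes and 1237 none. A linear model over 48 arrays, with 16 denominator means, 8 agent effects, 1 weight per comparison and 24 residual degrees of freedom, was fitted with limma 3.58.1 in R 4.3.3, and checked on simulated data. The threshold was an adjusted p of 0.05. Alternatives changed the weights, the denominator means, the arrays fitted, centring, probe sets, the eBayes setting and the replicate block, or left out 1 array at a time. With no level in the values, no filter on dim probe sets was possible. Precision was limited by the number of arrays, and the median 95% half-width for members ran from 0.238 to 0.463.

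Members and lists were chosen with earlier results of these data known. Named were members that were called, the 2 highest and 2 lowest with separate arrays in each comparison, the 5 with the largest mean effect of one sign per agent, 3 with disagreeing probe sets, and a few with known roles. Zfp131, Zfp612, Zfp787, Zfp799, Zfp106, Zfp110 and Zfp524 were named after their values were seen. Promoter windows came from RefSeq (GRCm38.p6), and 18 members had no entry: Zfp276, Zfp35, Zfp354a, Zfp362, Zfp40, Zfp51, Zfp524, Zfp532, Zfp568, Zfp574, Zfp612, Zfp703, Zfp865, Zfp90, Zfp930, Zkscan14, Zkscan3 and Zkscan5.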

Additional observations from a re-analysis of the deposited data

Results flagged for a closer look

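Zfp467, a factor of mesenchymal cells, had effects of opposite sign in the 2 tissues 12 h after acetazolamide. Every acetazolamide array of ectoderm lay on 1 side of vehicle and every array of mesoderm on the other, with effects of 0.25 and -0.0906. The mesoderm effect was smaller than its SE, and the difference between tissues was not tested. Zfp91, a ubiquitin ligase with several probe sets that disagree, had opposite directions at the 2 times after cadmium in mesoderm, with 0.13 at 3 h and -0.17 at 12 h. The time difference was -0.31 ± 0.12, with a limma adjusted p of 0.423, and did not pass the test.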

How the results depend on the processing

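Of 438 values of the 26 results on the family under the alternatives, 52 changed, and of 4291 values for named members 106 moved, none reversed and 33 calls were lost. With no weights per comparison, 5 members were called in 12 h cadmium ectoderm (0 with weights), 2 in 12 h cadmium mesoderm (6 with weights), 2 in the mean acetazolamide effect (0) and 13 in the difference between agents in 12 h ectoderm (0), where 1.08%, 0.267%, 1.27% and 3.60% of all genes were called. With the 6 arrays of the comparison alone, 0 were called in 12 h cadmium mesoderm. With no denominator means, 2 were called in the time difference of cadmium mesoderm and 3 in the mean acetazolamide effect. Without probe sets that carry a cross-hybridisation suffix, 1 was called in the mean acetazolamide effect. Where no share of all genes is given, a count is not set against the background and does not single out the family. The median of the members was -0.0188 in 3 h cadmium ectoderm with the probe set of smallest residual variance, and 0.0446 in 3 h acetazolamide ectoderm with centred arrays. Array numbers were not taken to pair the samples: the difference between arrays 1 and 2 correlated between treated and vehicle groups at -0.195 to 0.651 and over 0.1 in 3 of 8 comparisons. Vehicle array 3 is fixed and gives no such check. The 0.651 was in 12 h cadmium mesoderm. With the replicate block, 16 members were called there (5.56% of all genes), among them Zfp62, Zfp281, Zfp871, Zfp101, Zfp131 and Zfp688, with limma adjusted p of 0.0109 to 0.0353. The block also gave 3 in the time difference of cadmium mesoderm (0.921% of all genes) and 3 in the mean acetazolamide effect (1.48%). The cause of these shifts was not tested.

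Leaving out 1 array at a time gave ranges of called members: 3 to 15 in 12 h cadmium mesoderm, 0 to 4 in 12 h cadmium ectoderm (4 without PBS array 1), 0 to 1 in each 3 h cadmium comparison, 0 to 6 in 12 h acetazolamide ectoderm, 0 to 1 in 3 h acetazolamide ectoderm and 0 to 2 in 3 h acetazolamide mesoderm. They were 0 to 4 for the time difference of cadmium mesoderm, 0 to 1 for that of ectoderm, 0 to 11 and 0 to 3 for the difference between agents in 12 h ectoderm and mesoderm, 2 to 10 for the mean cadmium effect and 0 to 4 for the mean acetazolamide effect. The share of all genes called also changed with the array left out, so these ranges do not single out the family. Leaving out array 3 of the treated or of the vehicle group gave the same values. The median of the members ran from -0.160 to -0.0609 in 12 h cadmium ectoderm, 0.0588 to 0.249 in 12 h acetazolamide ectoderm, -0.0311 to 0.00835 in 3 h cadmium ectoderm and -0.0415 to 0.000776 in 3 h acetazolamide ectoderm. A restriction to members with at least 3 finger patterns in their protein was not run. The values hold no level, so which members were dim is unknown.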

Other observations

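Probe sets that name several genes were left out of the family. Of these, 6 carry a symbol of the same pattern, such as those for Zfp808 with Zfp934, Zfp960 with Zfp97, and Zfp706 with a predicted gene. None was called in any of the 8 comparisons by limma.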
